A study of Mus musculus with 6 samples.

Results

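The nuclear-encoded genes of oxidative phosphorylation were taken by name from the gene list of the libraries. Every symbol that starts with Nduf, Uqcr, Atp5 or Sdh, or with Cox followed by a digit from 4 to 8, was a member, except Ndufa4l2, Cox4i2, pseudogenes ending in ps and symbols starting with Gm. The rule found 95 rows of 31053, which carry 94 different symbols because Atp5o stands under 2 gene identifiers. Of the members, 7 are core subunits, 29 accessory subunits and 8 assembly factors of complex I. Complex II has 4 subunits and 4 assembly factors, complex III 8 members, complex IV 18 and complex V 17. Ndufa4, named after complex I, was counted with complex IV, to which its protein is now assigned.

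The study profiled single cells of mice carrying a tamoxifen-inducible Cre under the Tbx18 promoter and a tdTomato reporter (Tbx18CreER/+;Rosa26tdT/+), a line used to label pericytes and vascular smooth muscle. All 6 groups had tamoxifen for 4 days and then a washout period, and all cells were sorted for tdTomato. The heart groups were ventricles after sham surgery, the infarct that follows tying of the left anterior descending (LAD) coronary artery, and the tissue around that infarct. The brain groups were cortex after sham surgery, the necrotic core of a photothrombotic stroke, and the tissue around it. Hearts without atria were digested with collagenase and dispase and brains with a commercial kit, so organ and digestion cannot be told apart. Each group is 1 library, and the number of animals, their age and the time after injury are not given in the sources used here.

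The inner mitochondrial membrane holds the electron transport chain: complexes I and II take electrons from NADH and succinate, complex III passes them to cytochrome c, and complex IV reduces oxygen. Complexes I, III and IV pump protons, and complex V, the ATP synthase, lets them flow back to make ATP. A few subunits of complexes I, III, IV and V are encoded in mitochondrial DNA, and all others, with the whole of complex II, come from nuclear genes. Some complex IV subunits exist as a widespread and a muscle isoform, and Ndufa4l2 and Cox4i2 are paralogs of Ndufa4 and Cox4i1 known from pericytes and from low oxygen.

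The 5′ flanks of 2 isoform pairs of complex IV are shown because the muscle isoform of each was nearly confined to 1 cell class in these data. The stretches hold the 120 bases before the most upstream annotated transcript start, from RefSeq's GRCm38.p6 windows, 5′ to 3′ on the gene's strand, with each CG pair in capitals. Cox7a1 and Cox8b are the heart and skeletal muscle isoforms, and Cox7a2 and Cox8a their widespread counterparts. They lie at chr7:30184024-30184143 (plus strand), chr9:79759879-79759998 (minus strand), chr7:140900447-140900566 (minus strand) and chr19:7217617-7217736 (minus strand).
Cox7a1: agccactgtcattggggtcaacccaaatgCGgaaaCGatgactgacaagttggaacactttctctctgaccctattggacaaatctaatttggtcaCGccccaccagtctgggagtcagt
Cox7a2: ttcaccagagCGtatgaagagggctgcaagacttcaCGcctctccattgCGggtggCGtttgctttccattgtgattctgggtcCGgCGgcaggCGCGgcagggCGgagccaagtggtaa
Cox8b: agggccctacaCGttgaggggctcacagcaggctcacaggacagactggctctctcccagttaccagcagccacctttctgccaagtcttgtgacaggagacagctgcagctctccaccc
Cox8a: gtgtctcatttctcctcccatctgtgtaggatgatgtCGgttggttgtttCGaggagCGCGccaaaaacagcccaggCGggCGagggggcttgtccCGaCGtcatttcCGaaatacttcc
The muscle isoforms had 3 (Cox7a1) and 1 (Cox8b) CG pairs in these 120 bases, and the widespread isoforms had 9 (Cox7a2) and 9 (Cox8a). In the full 300-base windows, from 250 bases before the RefSeq start to 50 after it, Cox8b had 2 and Cox7a1 7 CG pairs, against 19 for Cox8a and 20 for Cox7a2. The median was 20 CG pairs over 83 windows of the 78 members with a window, and 7 over all 32851 windows. The 4 printed flanks thus differ by isoform type, and most members have CG-rich flanks.

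On either strand, the letters CCGGAAG, the core that ETS-family factors bind, were in 21 of 83 member windows (25.3%) and in 8.86% of all windows. The letters GCGCATG, the core of the site of the respiratory factor NRF1, were in 15 member windows (18.1%) and in 3.91% of all windows. The letters AAGGTCA, bound by estrogen-related receptors, were in 9.64% of member and 4.72% of all windows, and TATAAA in 10.8% and 13.6%. Cox8a held CCGGAAG at 2 places, 5 bases before and 32 bases after its RefSeq start, on the opposite strand. Cox8b held TATAAA 4 bases after its start, outside the printed stretch. Of the 4 motifs, CCGGAAG and AAGGTCA can share the letters AAG, the NRF1 core can overlap its own reverse complement, and no motif contains another.

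Cells were given a class from marker transcripts: pericyte-like, smooth-muscle-like, fibroblast-gated, endothelial-like, macrophage-like, mesothelial-like or cardiomyocyte-like. The word gated is kept for the fibroblast class because its brain cells differ in identity between libraries. At least 50 cells were present in 29 combinations of class and library, from 57 macrophage-like cells of the brain peri-infarct to 5841 fibroblast-gated cells of the heart infarct. In the cells themselves, pericyte markers summed to 14655 to 38207 CPM in pericyte-like cells of the 6 libraries. The 13 fibroblast markers summed to 25344, 24391 and 26872 CPM in fibroblast-gated cells of heart sham, infarct and peri-infarct and to 4609, 11603 and 4377 in the brain. In the brain the same cells carried 23666, 334 and 16001 CPM of 7 arachnoid markers, led by Ptgds, against at most 17.3 in the heart. Fibroblast-gated cells of brain sham and peri-infarct therefore had more arachnoid than fibroblast marker RNA, and those of the brain infarct did not. The libraries differed in depth, with a median of 1408 unique molecular identifiers (UMIs) per cell in the heart sham and 26159 in the brain infarct, and 58.8% of heart sham cells had no class against 5.75% to 17.5% elsewhere. Up to 204 cell barcodes were shared by 2 libraries, 7.88% of the smaller, between heart and brain peri-infarct. Values below are UMIs of a gene per 1000000 UMIs (CPM), summed over all cells of a class in a library. Their 95% intervals are exact Poisson intervals, those of ratios exact binomial ones, and both cover counting error only, not differences between animals. With 1 library a group no test between groups was possible, so a gene is called higher or lower at 2-fold, among genes that averaged 50 CPM or more over the 2 sums compared. A fold or log2 ratio is that of CPM + 1. Ratios were also taken after TMM scaling, which sets library totals so that most genes have a ratio near 1, and with totals that leave out mitochondrial, ribosomal and Malat1 UMIs. Where TMM turns the direction of a median or moves a count of members by over 1.5 times, its value stands beside the result. Shares of all genes past 2-fold are those with totals as deposited, and none is given under TMM.

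Members made up 1.72% to 3.75% of the UMIs of a class when cardiomyocyte-like cells are set aside. Of the 95, 72 reached 50 CPM in all 29 sums, 14 in some and 9 in none. The 9 were the testis-type isoforms Cox7b2 and Cox8c, Atp5s, Sdhaf3, the complex I assembly factors Ndufaf1, Ndufaf5, Ndufaf6 and Ndufaf7, and one of the Atp5o identifiers, which had no UMI in any sum. The highest median level over the 28 sums without cardiomyocyte-like cells belonged to the complex IV subunits Cox8a (1131 CPM), Cox6c (798), Cox7c (739) and Cox4i1 (733) and to Atp5e (679) of complex V. These levels count UMIs of one transcript end and were not scaled by transcript length. Differences in capture between genes were not tested. The enzymatic subunit Sdha of complex II varied from 59.6 to 177 CPM and Ndufs1, the largest core subunit of complex I, from 21.8 to 101. Other catalytic subunits were higher, such as Atp5b with a median of 497 CPM and Atp5a1 with 357.

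Smooth-muscle-like cells had the highest summed level of members in each of the 4 libraries where they reached 50 cells, cardiomyocyte-like cells aside. The summed level was 28992 CPM in the heart sham, 32086 in the heart infarct, 35226 in the heart peri-infarct and 37537 in the brain sham. Pericyte-like cells had 22974, 26214 and 28774 CPM in the same heart libraries and 23733, 25998 and 28179 in brain sham, infarct and peri-infarct. Pericyte-like cells of both organs thus lay in the same range. They were below smooth-muscle-like cells of their own library in the 4 libraries with such a sum.

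Fibroblast-gated cells split by organ. Their summed level was 19492, 18208 and 18692 CPM in heart sham, infarct and peri-infarct, and 26292, 34006 and 34436 CPM in the brain. Endothelial-like cells ranged from 19317 CPM in the heart sham to 25628 in the brain peri-infarct. Macrophage-like cells had 17905 and 17186 CPM in injured heart and 26399 and 20546 in brain infarct and peri-infarct. In each heart library smooth-muscle-like cells came first and pericyte-like cells next, and in each brain library fibroblast-gated cells came above pericyte-like cells. The order of these 2 classes depended on the processing in both shams and the brain peri-infarct. The members' median log2 ratio of pericyte-like over fibroblast-gated cells was 0.23 in the heart sham but -0.075 under TMM. In the brain sham it was -0.05, but 0.21 with the gate set on cells thinned to equal depth, 0.09 in cells of 1000 to 10000 UMIs and 0.019 as a mean over cells. In the brain peri-infarct it was -0.21, and 0.0081 in cells of 1000 to 10000 UMIs.

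**Figure D1:**
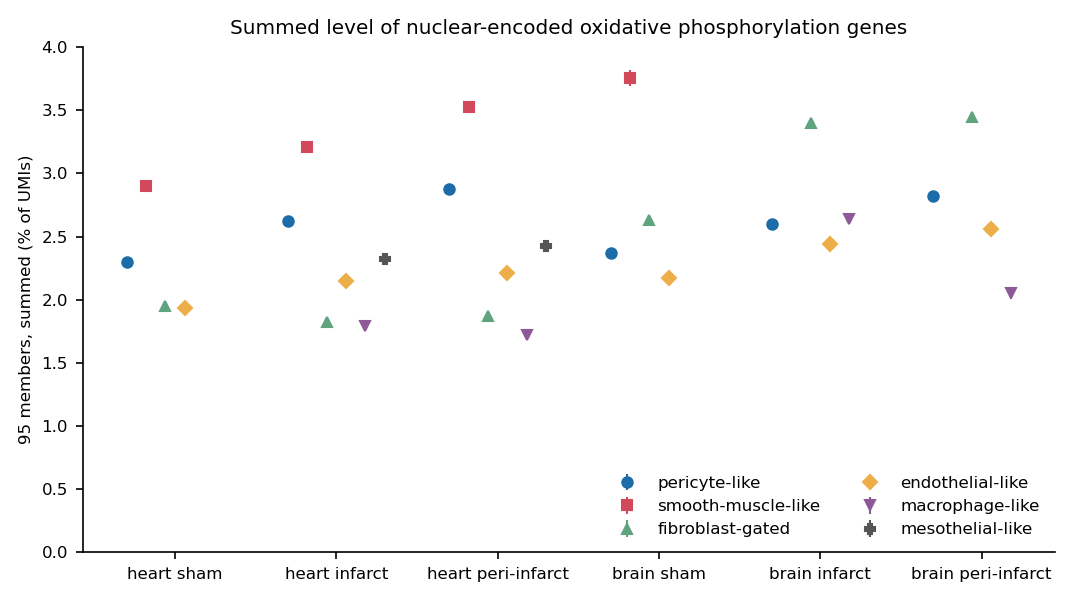
Share of all UMIs (percent, vertical axis) that fell on the 95 members, for each class with at least 50 cells in each of the 6 libraries; each point is 1 sum, bars are exact Poisson 95% intervals that are mostly smaller than the points, and the cardiomyocyte-like class of the heart peri-infarct (15.7%) is off the scale and left out. Smooth-muscle-like cells lead in 4 libraries, and fibroblast-gated cells are plotted below pericyte-like cells in the heart and above them in the brain, an order that other settings turn in both shams and the brain peri-infarct.

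Fibroblast-gated cells of the 2 infarcts were apart cell by cell. The median share of a cell's UMIs from members was 1.75% in fibroblast-gated cells of the heart infarct (quartiles 1.54% and 2.0%). It was 3.36% in those of the brain infarct (quartiles 3.06% and 3.63%). The interquartile ranges did not overlap, which describes cells of 2 libraries and not replicates.

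The complexes kept nearly constant proportions. Complex I accessory subunits gave 25.1% to 30.2% of member UMIs in the 28 sums, complex IV 24.8% to 29.8%, complex V 24.2% to 28.7% and complex III 9.78% to 11.7%. The complex I core gave 5.54%, 5.58% and 5.44% in brain pericyte-like cells of sham, infarct and peri-infarct, the highest shares of the 28. Complex IV gave 24.9%, 24.8% and 25% there, the lowest. This share counts Ndufa4 but not the paralogs Ndufa4l2 and Cox4i2, both high in pericyte-like cells and left out by the naming rule. It thus does not describe complex IV with these paralogs counted.

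One member separated pericyte-like cells from all other classes. Ndufa4, a small subunit at the surface of complex IV (chr6:11900292-11907497 of GRCm38, minus strand), was at 249 (95% interval 210.5 to 292) CPM in pericyte-like cells of the heart sham. It was at 116 (95% interval 108 to 125) in the heart infarct and 131 (95% interval 121 to 142) in the heart peri-infarct. In the brain it was at 102 (95% interval 93.4 to 111) in the sham, 69.1 (95% interval 56.7 to 83.4) in the infarct and 162 (95% interval 148 to 177) in the peri-infarct. In these 6 libraries Ndufa4 was lower in pericyte-like cells than in each other class present.

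Smooth-muscle-like cells, the other mural class, had 554, 567 and 735 CPM of Ndufa4 in heart sham, infarct and peri-infarct and 854 in the brain sham. Fibroblast-gated cells had 370.2, 435 and 446 in the heart and 844, 827 and 1116 in the brain. Endothelial-like cells ranged from 497 to 839 and macrophage-like cells from 332 to 477. The lowest of these values, in macrophage-like cells of the heart infarct, is still above the highest pericyte-like value.

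Over the 22 comparisons of pericyte-like cells with another class of their library (cardiomyocyte-like cells aside; the 3 to 5 comparisons of a library share its pericyte-like sum), the Ndufa4 log2 ratio ran from -3.56 to -0.57 with a median of -2.32. It was at least 2-fold lower in 21 of 22 and below 0 in 22. Of the 74 members tested in all 22, Ndufa4 was the only one with the same sign throughout, and the next lowest median was -0.29, that of Atp5j, the coupling factor 6 of complex V. The number of all genes with the same sign throughout was not counted. In the brain sham, Ndufa4 was 8.31-fold lower in pericyte-like than in smooth-muscle-like cells. There 4 of 79 members and 9.37% of all genes were 2-fold lower. Under TMM 28 members were, with a median log2 ratio of -0.07 for all genes (0.28 with totals as deposited). In the heart infarct Ndufa4 was 4.85-fold lower, the only one of 76 members past 2-fold, beside 7.42% of all genes. Under 16 other settings of cell filters, gate, scaling and free RNA, all 340 recomputed values stayed below 0.

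**Figure D2:**
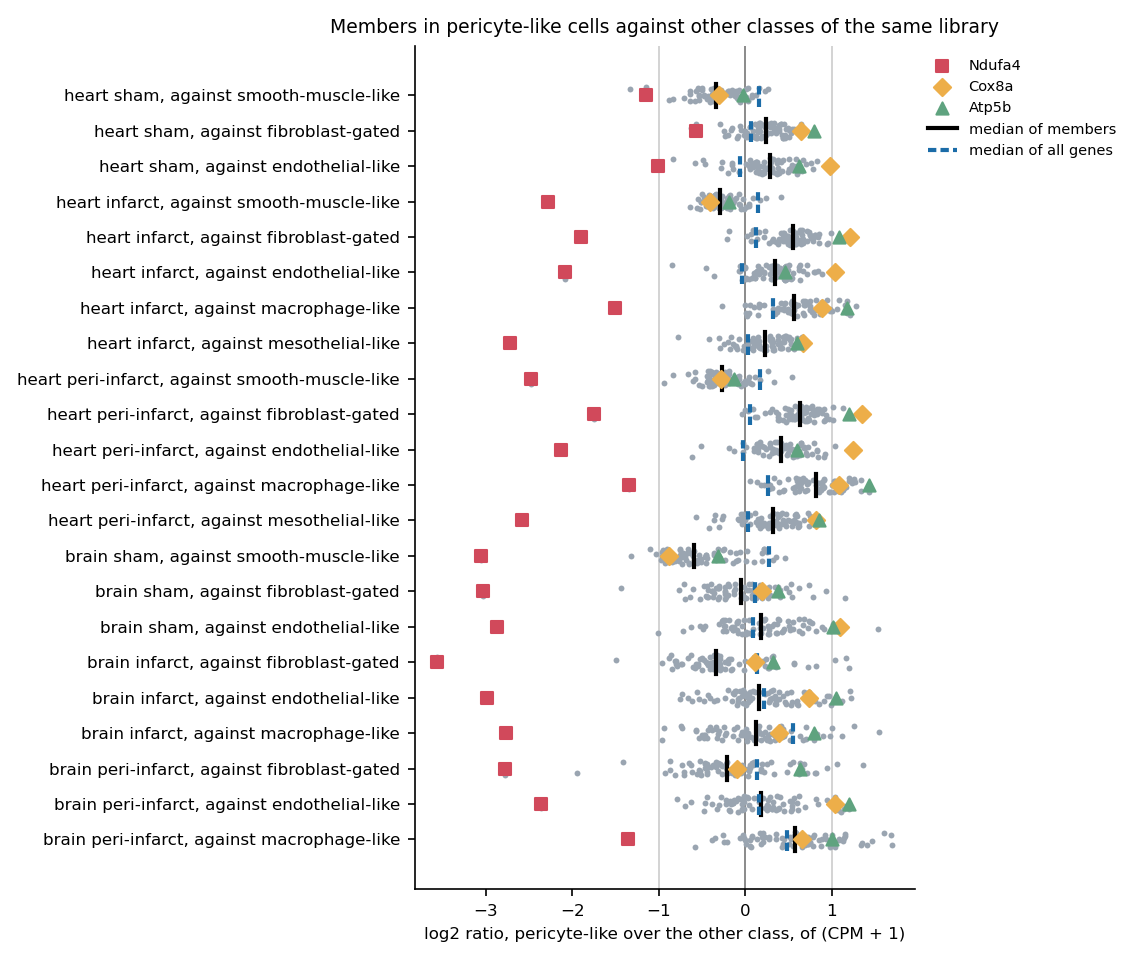
Log2 ratio of CPM + 1, pericyte-like over the other class of the same library (horizontal axis), for each member with a mean of at least 50 CPM (grey points), in 22 comparisons (rows); black bars mark the median of members, dashed blue bars the median of all genes, and grey lines 2-fold. Ndufa4 (red squares) is the lowest member in each row except 2 of the heart sham, and Atp5b (green triangles) is right of 0 except against smooth-muscle-like cells.

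The smallest contrast of Ndufa4 was in the heart sham, where pericyte-like cells had 1.49-fold less than fibroblast-gated cells. That library was the shallowest, its pericyte-like cells had a median of 1167 UMIs, and the share of free RNA estimated from fibroblast transcripts in its endothelial-like cells was 6.78% against 2.61% in the heart infarct. Fibroblast markers summed to 5230 CPM in pericyte-like cells of the heart sham, against 1634 in the infarct and 1319 in the peri-infarct. Of the 427 sham cells, 201 were just inside the gate (marker share under 0.73), against 93 of 1282 and 74 of 766 after injury. The part of depth, free RNA and these markers in the heart sham value and in its injury ratios was not tested. Ndufa4 was 2.13-fold lower in infarct than in sham pericyte-like cells of the heart (log2 -1.09, count-ratio interval 0.392 to 0.56), and log2 -0.91 in the peri-infarct. In the brain the log2 ratio was -0.55 in infarct and 0.66 in peri-infarct pericyte-like cells. The direction after injury thus differed between the brain zones, and no value passed 2-fold except that of the heart infarct.

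The 2 paralogs left out by the naming rule ran the other way. Ndufa4l2 was at 1383, 1918 and 2214 CPM in pericyte-like cells of heart sham, infarct and peri-infarct and at 1771, 1902 and 2337 in the brain, and no other class exceeded 607 CPM. In brain fibroblast-gated cells, where Ndufa4 was high, Ndufa4l2 was at 4.85, 84 and 5.24 CPM in sham, infarct and peri-infarct. Pericyte-like cells of each library thus had more Ndufa4l2 than Ndufa4 transcripts, over 10 times more in all but the heart sham. The other classes with more than 50 CPM of both had an excess of Ndufa4, except smooth-muscle-like cells of the heart infarct.

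Cox4i1, the widespread isoform of subunit 4, and Cox4i2 showed a partial version of this pattern. Cox4i2 was at 738, 696 and 945 CPM in heart and 898, 1014 and 1246 in brain pericyte-like cells. Cox4i1 was at 943, 1169 and 1209.5 in the former and 389.6, 584 and 397 in the latter. Cox4i1 exceeded Cox4i2 in pericyte-like cells of all 3 heart libraries and was below it in all 3 brain libraries. Unlike Ndufa4, Cox4i1 was not lower in heart pericyte-like than in heart fibroblast-gated cells (log2 0.30, 0.67 and 0.79 in sham, infarct and peri-infarct).

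Other members were higher in pericyte-like cells than in most other classes. Atp5b, the catalytic beta subunit of ATP synthase, was at 773, 719 and 883 CPM in heart pericyte-like cells and at 444, 339 and 386 in heart fibroblast-gated cells. Its median log2 ratio over the 22 comparisons was 0.72. Ndufs7, the core subunit of complex I that carries the last iron-sulfur cluster, had a median of 0.72, Cox8a 0.70 and Sdhc, a membrane anchor of complex II, 0.63. These medians combine comparisons that share a pericyte-like sum and are descriptions. Within the heart peri-infarct, 5 of 76 members were 2-fold higher in pericyte-like than in fibroblast-gated cells, beside 10% of all genes: Cox8a (log2 1.34), Atp5b (1.19), Sdhc (1.13), Atp5g3 (1.01) and Uqcr11 (1.01). Under TMM the count was 1. The share of members past 2-fold is below the share of all genes.

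In the brain the complexes parted. Against fibroblast-gated cells, complex I core subunits had a median log2 ratio of 0.17, 0.32 and 0.48 in sham, infarct and peri-infarct pericyte-like cells, and complex II subunits 0.32, 0.16 and 0.57. Complex IV had -0.23, -0.53 and -0.44 and complex V -0.20, -0.44 and -0.34, while the median of all genes was 0.11, 0.14 and 0.14. Complex I core and complex II medians lay above that of all genes, and complex IV and V medians below it, in all 3 brain libraries. Sdha, the flavoprotein of succinate dehydrogenase, was at 163, 143 and 177 CPM there against 118, 61.8 and 99.98 in fibroblast-gated cells. Ndufs1 was at 75.5, 71.6 and 69.7 against 56.8, 34.4 and 39.5. Both were 2-fold higher in the infarct, together with the assembly factor Ndufaf3, so that 3 of 81 members were, beside 26.3% of all genes (0 members under each of the other scalings). Sdha kept the same side in the sham (log2 0.47) and peri-infarct (0.82).

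Against smooth-muscle-like cells the members were lower in pericyte-like cells as a set under each of the 3 scalings run, by a median log2 ratio of -0.34, -0.29 and -0.27 in heart sham, infarct and peri-infarct and -0.59 in the brain sham. The median of all genes tested was 0.16, 0.14, 0.17 and 0.28, so the members lay 0.43 to 0.87 below it. Of 75 members tested in all 4, 56 were below 0 in each and 2, Ndufb4 and Ndufs4, above 0. Under TMM 69 were below 0 in each and none above. The same counts over all genes were not taken. Few members passed 2-fold: in the heart sham 2 of 77 were lower, beside 7.06% of all genes, namely Sdhc (-1.34) and Ndufa4 (-1.15). Under TMM 8 were, with a median of -0.21 for all genes. Sdhc was at 203, 162 and 225 CPM in smooth-muscle-like cells of heart sham, infarct and peri-infarct and at 79.6, 103 and 116 in pericyte-like cells. Cardiomyocyte markers summed to 163, 137 and 279 CPM in heart smooth-muscle-like cells and 91.2, 27.4 and 91.6 in heart pericyte-like cells, and their part in these ratios was not tested. The muscle isoforms Cox6a2 and Cox8b had 6 and 1 UMIs in smooth-muscle-like cells of the heart sham (5.03 and 0.838 CPM). They had none in those of the infarct and peri-infarct, where 3 UMIs would be 2.3 and 2.96 CPM. The other muscle isoform, Cox7a1, was detected in smooth-muscle-like cells of the heart peri-infarct.

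Injury moved the members little. In the heart infarct against sham, the median log2 ratio was 0.13 in pericyte-like, 0.14 in smooth-muscle-like, -0.12 in fibroblast-gated and 0.16 in endothelial-like cells, with 0.07, 0.12, 0.04 and 0.04 for all genes. In the heart peri-infarct it was 0.30, 0.29, -0.05 and 0.20, with 0.09, 0.13, 0.11 and 0.04 for all genes. Both heart comparisons share the sham library. Among these 4 classes, fibroblast-gated cells were the one in which the members lay below the median of all genes, in both heart zones.

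In pericyte-like cells of the heart the injured zones moved alike. Cox5a, a matrix-side subunit of complex IV, was at 232 CPM in the sham, 396 in the infarct and 454 in the peri-infarct. Atp5o was at 216, 371 and 378, Ndufb5 at 177, 293 and 303, and Ndufs4 at 91.2, 144 and 157. These log2 ratios were below 2-fold, the highest being 0.97 for Cox5a in the peri-infarct. Ndufa4 had the lowest ratio in both zones, followed by Ndufs7 (-0.37) in the infarct and Sdha (-0.16) in the peri-infarct. In brain pericyte-like cells the highest ratio of the infarct was that of Cox7a2l (0.68), then Cox4i1 (0.58), Uqcrh (0.57) and Sdhd (0.56), and in the peri-infarct those of Ndufa4 and Sdhd (0.64). Sdhd, a membrane anchor of complex II, was above its sham level in both brain zones. Immediate early and heat shock genes, known to respond to digestion, had a median of -1.04 in heart infarct pericyte-like cells against sham, and their part in the member ratios was not tested.

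In the brain infarct against sham the members' median was 0.13 in pericyte-like, 0.39 in fibroblast-gated and 0.16 in endothelial-like cells, with -0.07, -0.09 and -0.20 for all genes. In the brain peri-infarct it was 0.27, 0.37 and 0.25, with -0.03, -0.07 and -0.10. The members lay above the median of all genes in each brain class and zone, by 0.20 to 0.48, and these too share 1 sham library. The summed level in pericyte-like cells was 1.25 (95% interval 1.23 to 1.27) times the sham in the heart peri-infarct and 1.19 (95% interval 1.18 to 1.2) times in the brain peri-infarct. In pericyte-like cells the summed level within the infarct was below that around it in both organs. It was 0.911 (95% interval 0.905 to 0.917) times in the heart infarct against the peri-infarct and 0.923 (95% interval 0.912 to 0.934) times in the brain. Macrophage-like cells went the other way, with 1.04 times in the heart and 1.28 times in the brain. With totals as deposited, the summed level of each other class compared was below the peri-infarct. In fibroblast-gated cells the direction was not kept throughout. Their members' median log2 ratio was 0.035 in the brain (0.39 under TMM) and -0.06 in the heart (0.02 under TMM).

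Few members passed 2-fold after injury. In pericyte-like cells of the heart infarct it was Ndufa4 alone, 1 of 77, beside 5.17% of all genes lower. In smooth-muscle-like cells of the heart infarct Ndufs1 was lower, at 49.1 CPM against 101 in the sham, 1 of 77 beside 6.28%. In endothelial-like cells Ndufa8 was higher, at 347 CPM in the infarct and 331 in the peri-infarct against 165 in the sham, 1 of 75 in each beside 5.42% and 5.94% of all genes. In these heart comparisons 2-fold differences were rarer among members than among all genes. Under TMM, 0 members were 2-fold lower in pericyte-like cells of the infarct and 0 higher in its endothelial-like cells.

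Atp5g1 was above its sham level in all 14 comparisons of an injured class with sham, with a median log2 ratio of 0.46, and so were Atp5o, Atp5f1 and Atp5j2 of complex V, Cox6b1, Uqcrq, Ndufa8, Ndufb5 and Ndufs3, and the same 9 were under both other scalings. Of the 73 members tested in all 14, none was below 0 throughout. How many of all genes kept the same sign throughout was not counted. Sdha had the lowest median, -0.24, and was below 0 in 13 of 14. Since each organ has 1 sham library, these signs are not independent, and a property of the sham library enters all of its comparisons. Atp5g1, Atp5g2 and Atp5g3 encode the same mature c subunit of the ATP synthase rotor. In heart fibroblast-gated cells Atp5g1 was at 268, 359 and 366 CPM in sham, infarct and peri-infarct, Atp5g3 at 175, 153 and 173. The c-subunit genes did not move as one.

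**Figure D3:**
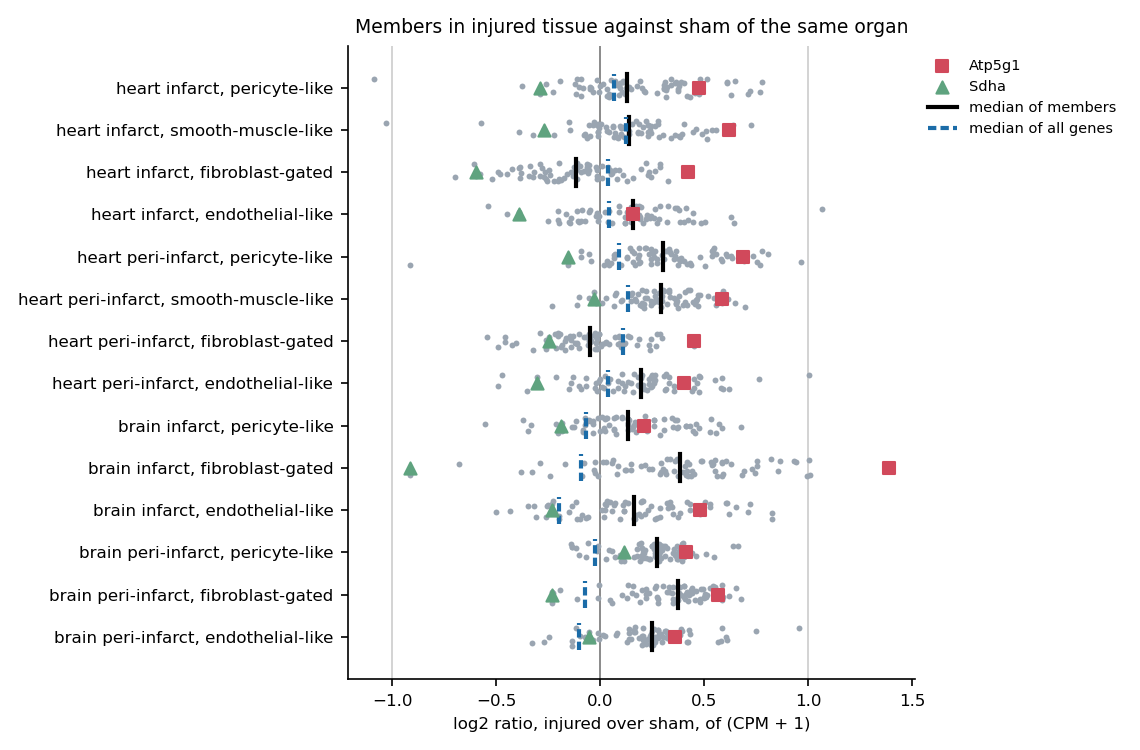
Log2 ratio of CPM + 1, injured over sham tissue of the same organ (horizontal axis), for each member with a mean of at least 50 CPM (grey points) in 14 comparisons (rows); black bars mark the median of members, dashed blue bars the median of all genes, and grey lines 2-fold. The black bar lies right of the blue one in all brain rows and left of it in both heart fibroblast-gated rows; Atp5g1 (red squares) is at or above 0 throughout and reaches 1.39 in brain infarct fibroblast-gated cells.

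The highest ratio of a single member to sham was in fibroblast-gated cells of the brain infarct, whose sham counterparts carry far more arachnoid marker RNA. Atp5g1 was at 281 CPM in the sham, 738 in the infarct and 417 in the peri-infarct, 2.62-fold higher in the infarct than in the sham. Uqcrc1, a core protein of complex III, was at 98.3, 199 and 102, and Atp5o, the stalk protein of ATP synthase, at 182, 367 and 238. These 3 of 78 were 2-fold higher, beside 11.7% of all genes. Under TMM 33 members were, with a median of 0.96 for members and 0.54 for all genes. The count thus depends on the scaling. Sdha went the other way, at 118 CPM in the sham, 61.8 in the infarct and 99.98 in the peri-infarct (log2 -0.92 in the infarct), followed by Ndufa6 (-0.68). With totals as deposited the share of members past 2-fold is below that of all genes, while their median was 0.48 above that of all genes.

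In the same cells the mitochondrially encoded subunits were lower. Their 13 genes had a median log2 ratio of -1.31 in infarct against sham, and the ratio of member UMIs to mitochondrially encoded UMIs was 1.32 in the infarct, 0.542 in the sham and 0.618 in the peri-infarct. It was between 0.385 and 0.54 in heart fibroblast-gated cells. Cytosolic ribosomal protein genes had a median of 1.12, glycolysis genes 0.96, mitochondrial ribosomal protein genes 0.55 and citric acid cycle genes -0.23. Nuclear-encoded subunits thus shared their direction with ribosomal and glycolytic genes and not with mitochondrially encoded subunits. These cells had a median of 35439.5 UMIs, 9140.5 in the sham, and 62.2% held a UMI of a proliferation marker against 2.99%, a share that grows with depth. When arachnoid markers were counted against the gate, only 20 sham cells were left, so the comparison could not be made among cells without them. Without the cells that held a proliferation UMI the members' median was 0.34. The part of depth and of the change in cell identity was not tested.

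Brain macrophage-like cells showed the same direction between zones, with a median of 0.40 in infarct against peri-infarct and -0.10 for all genes. Ndufc1 (log2 1.20) and Ndufb6 (1.11), accessory subunits of complex I, were 2-fold higher, 2 of 74 beside 4.12% of all genes, and Sdha was lower (-0.83). Under TMM 18 members were 2-fold higher, with a median of 0.275 for all genes. Heart macrophage-like cells differed little between infarct and peri-infarct (median 0.04), as did mesothelial-like cells (-0.06).

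Between organs, fibroblast-gated cells of the injured libraries had the lowest member medians. In the sham, smooth-muscle-like cells had nearly the same median (-0.43) and lay further below that of all genes (-0.23 against -0.17). In fibroblast-gated cells the members' median log2 ratio of heart over brain was -0.44 in the sham, -0.91 in the infarct and -0.81 in the peri-infarct, with -0.27, -0.16 and -0.07 for all genes. Under TMM scaling, which moves the median of all genes as well, the sham value was -0.072. In the infarct 32 of 77 members were 2-fold lower in the heart, beside 13.7% of all genes, and 0 were higher, beside 16.6%. In the peri-infarct 28 of 76 were lower, beside 17.7%, and in the sham 5 of 77, beside 18.1% (2 members under TMM). The share of members exceeded that of all genes in the injured libraries and not in the sham. Cell identity differed too: arachnoid markers were high in brain sham and peri-infarct cells and low in brain infarct cells, and with arachnoid markers counted against the gate the median was -0.90 in the infarct and -0.76 in the peri-infarct (71 brain cells).

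Cox5b, a structural subunit of complex IV, shows the pattern: fibroblast-gated cells had 263, 229 and 239 CPM in heart sham, infarct and peri-infarct and 419, 702 and 631 in the brain. Its log2 ratio in the infarct, -1.61, was the lowest of the members there, followed by Atp5g2 (-1.5), Ndufv2 (-1.46), Atp5k (-1.46) and Ndufb8 (-1.45). By complex, the infarct medians were -1.0 for the complex I core, -0.84 for its accessory subunits, -0.74 for complex II, -1.16 for complex III, -1.15 for complex IV and -0.91 for complex V. Each complex was lower in the heart. Outside the members, 16 of 49 mitochondrial ribosomal protein genes, 4 of 6 genes of the mitochondrial carriers and pores and 2 of 8 citric acid cycle genes were 2-fold lower in the heart, with none higher. Of the tested glycolysis genes 6 of 10 were lower too, and of the mitochondrially encoded subunits 2 of 12, with 2 higher. Macrophage-like cells of the infarct had a median of -0.64 with 12 of 75 members lower, beside 5.5% of all genes. Under TMM 27 members were lower, with a median of -0.12 for all genes.

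Pericyte-like cells had a smaller organ difference, whose sign depended on the scaling. Their summed level was 0.968 (95% interval 0.951 to 0.985) times the brain's in the heart sham, 1.01 (95% interval 0.998 to 1.02) times in the infarct and 1.02 (95% interval 1.01 to 1.03) times in the peri-infarct, with member medians of -0.12, -0.05 and -0.06 (0.066, 0.33 and 0.19 under TMM). The median of all genes was -0.31, -0.18 and -0.21. The intervals are narrow because the counts are large. Mitochondrially encoded subunits were higher in heart pericyte-like cells, with a median log2 ratio of 0.97, 0.87 and 0.86. Nuclear and mitochondrial subunits were thus shifted by unlike amounts in this class.

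Cox7a2l and Cox4i1 were higher in the heart in all 12 comparisons of a class between organs, 4 of them for each condition. Cox7a2l, which joins complex III to complex IV in the supercomplex (chr17:83501918-83517330 of GRCm38, minus strand), was at 279, 456 and 433 CPM in heart pericyte-like cells and 131, 209 and 167 in the brain. In endothelial-like cells it was at 497, 480.3 and 474 against 202, 333 and 233. Its median log2 ratio over the 12 was 1.0 (range 0.50 to 1.5) and that of Cox4i1 0.83 (range 0.16 to 1.61). All 184 values of each under other settings kept the sign. The 12 comparisons use 6 libraries, so organ, digestion and library cannot be told apart.

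In the other direction, 27 of the 73 members tested in all 12 were lower in the heart in each. The same count over all genes was not taken. Over the 12 comparisons 31.8% to 54.6% of all genes were above 0, and 5.19% to 45.6% of members. The count of 27 members rests on the scaling: 6 were lower throughout under TMM (Ndufb3, Ndufb2, Atp5g2, Ndufa11, Ndufv2 and Ndufs8) and 11 with the reduced totals. Cox7a2l and Cox4i1 were higher throughout under all 3. Ndufa3, an accessory subunit of complex I, had the lowest median (-1.05, range -2.20 to -0.36). It was at 101, 105 and 89.9 CPM in heart and 294, 277 and 418 in brain fibroblast-gated cells. Ndufa1 (-0.92), Atp5g2 (-0.86) and Ndufb2 (-0.84) followed. In pericyte-like cells, with an overall difference near 0, 4 of 80 members were 2-fold higher in the heart peri-infarct, beside 8.23% of all genes, and 3 lower, beside 15.6%. Those higher were Cox4i1 (1.61), Cox7a2l (1.37), Uqcrh (1.19) and Atp5o (1.01), and those lower Ndufb2 (-1.18), Ndufa3 (-1.05) and Sdhaf1 (-1.04), of which 0 were 2-fold lower under either other scaling.

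**Figure D4:**
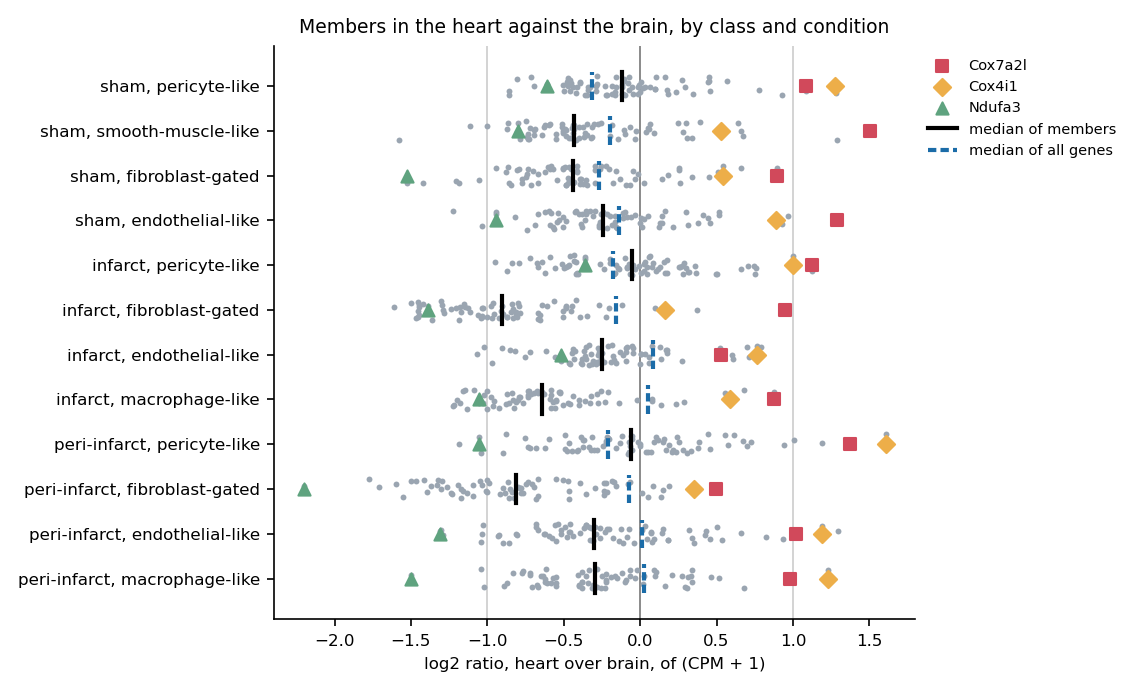
Log2 ratio of CPM + 1, heart over brain (horizontal axis), for each member with a mean of at least 50 CPM (grey points) in the 12 comparisons of a class and condition (rows); black bars mark the median of members, dashed blue bars the median of all genes, and grey lines 2-fold. Members are shifted left in fibroblast-gated cells of the infarct (-0.91) and peri-infarct (-0.81), while Cox7a2l (red squares) and Cox4i1 (yellow diamonds) are right of 0 in each row.

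The 84 cardiomyocyte-like cells of the heart peri-infarct set the upper end. Cardiomyocyte markers made up 79924 CPM of their RNA, and members made up 15.7%. The summed level in pericyte-like cells of that library was 0.183 (95% interval 0.181 to 0.184) times theirs. Of 84 members tested, 79 were 2-fold lower in pericyte-like cells, beside 19.3% of all genes. These cells came through a sort for tdTomato and a limit of 10% on mitochondrial UMIs, and their median mitochondrial share was 3.24%. Cells with more were left out.

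The muscle isoforms were nearly confined to this class. Cox6a2 was at 3903 CPM, Cox8b at 2107 and Cox7a1 at 2393. In the other 6 classes of that library Cox6a2 ranged from 0 to 25.4 CPM, Cox8b from 0 to 10.7 and Cox7a1 from 5.98 to 24.8. Endothelial-like cells, which had the most Cox6a2 and Cox8b among these 6, also had the most cardiomyocyte marker RNA, 465 CPM against 38.3 in fibroblast-gated cells. Smooth-muscle-like cells, with the next most (279 CPM), had no UMI of Cox6a2 or Cox8b. Cox7a1 was instead highest of the 6 in pericyte-like cells (24.8 CPM), whose cardiomyocyte markers summed to 91.6 CPM. The part of cardiomyocyte RNA in those traces was not tested.

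The widespread counterparts did not follow one rule. Cox6a1 was at 188 CPM in cardiomyocyte-like and 367 in pericyte-like cells, and Cox8a at 1386 and 1625. Cox7a2 was at 2431 and 589, so it stayed high beside Cox7a1. Cox6a1 and Cox8a were the only members tested with more CPM in pericyte-like than in cardiomyocyte-like cells. Atp5g1 was at 9160.4 CPM in cardiomyocyte-like cells, above Atp5g2 (1107) and Atp5g3 (1273), whereas in pericyte-like cells these were at 366, 389 and 349. Ndufa4 was at 3432 CPM, against 131 in pericyte-like cells.

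**Figure D5:**
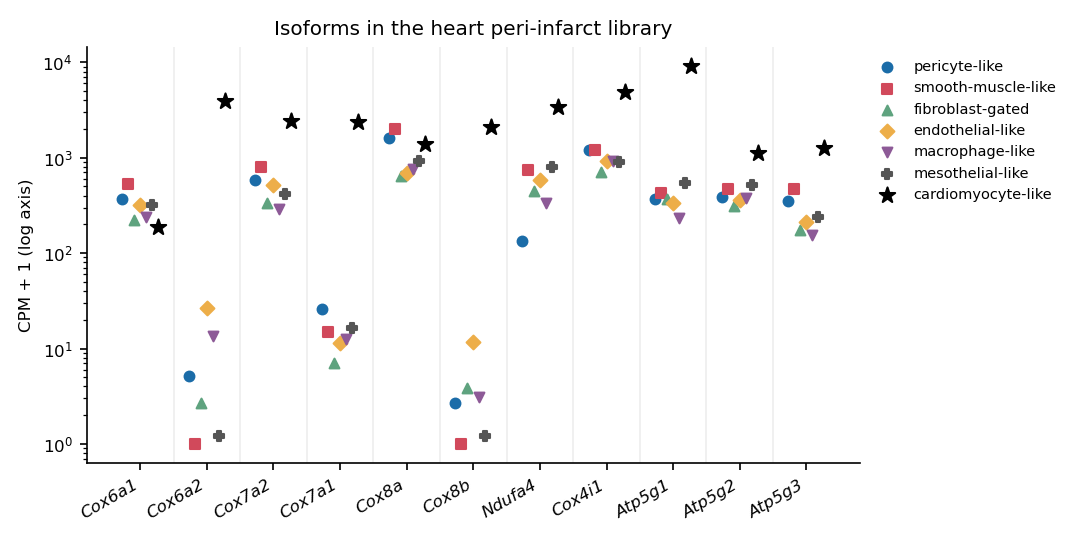
CPM + 1 on a log axis (vertical) of complex IV and V isoform genes and Ndufa4 in the 7 classes of the heart peri-infarct library; each point is the sum over the cells of 1 class, and a point at 1 is a gene without a UMI. The cardiomyocyte-like class (stars) is above the others for Cox6a2, Cox7a1 and Cox8b, below them for Cox6a1, and the pericyte-like class (blue circles) is lowest for Ndufa4.

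Assembly factors build the complexes and are not part of them, and their median levels over the 28 sums ran from 7.69 CPM (Ndufaf5) to 79.8 (Ndufaf8). The 8 of complex I together gave 158 to 400.3 CPM in the 28 sums without cardiomyocyte-like cells. In cardiomyocyte-like cells Ndufaf3 was at 55.5 CPM and Ndufaf2 at 81, against 49.6 and 63.8 in pericyte-like cells, while Ndufaf8 was at 252 against 79.2 and Ndufaf4 at 145 against 55. The complex I assembly factors tested had a median log2 ratio of -0.86 of pericyte-like over cardiomyocyte-like cells, and the complex I core -2.11. Sdhaf4, an assembly factor of complex II, was at 96.9, 74.1 and 129.5 CPM in brain and 35.5, 54.2 and 51.9 in heart fibroblast-gated cells.

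Cox6b2, and Cox6a2 outside cardiomyocyte-like cells, had their highest level in a brain class. Cox6b2, known as the testis isoform of Cox6b1, was at 82.4 (95% interval 73.9 to 91.5) CPM in fibroblast-gated cells of the brain peri-infarct and 58.6 in those of the brain sham, against 24 in the infarct, 35.8, 26 and 20.6 in pericyte-like cells of brain sham, infarct and peri-infarct, and at most 29.6 in heart classes. Cox6a2 was at 62.8 (95% interval 39.8 to 94.2) CPM (23 UMIs of 57 cells) in macrophage-like cells of the brain peri-infarct and at 11.9 in those of the infarct. Cox8b had no UMI in either, where 3 UMIs would be 8.19 and 1.19 CPM. Cardiomyocyte markers summed to 5.46 CPM in macrophage-like cells of the brain peri-infarct. Cox6a2 was thus detected there beside little other muscle RNA.

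The members varied together over classes. Across the 28 sums without cardiomyocyte-like cells, the log2 level of the 72 members that reached 50 CPM throughout had a median Pearson correlation of 0.767 with the log2 summed level, from -0.444 (Cox7a2l) to 0.968 (Uqcr10). Each member is part of that sum, and sums of 1 library share its depth and free RNA. Among other genes, with cardiomyocyte-like cells included (29 sums), the pattern most like the sum was that of Cyc1 (0.932), the cytochrome c1 of complex III that the naming rule misses, then Bola3, Mrps36, 2010107E04Rik and Cycs (0.923), cytochrome c itself. Without cardiomyocyte-like cells Pdcd5 (0.907), Chchd2, Cisd1, Cycs and Cyc1 led. These are descriptions over sums, not tests.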

How the data were processed

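Single cells sorted for tdTomato were sequenced in 6 libraries, 1 per group. The deposited files hold UMI counts per gene and called barcode, as deposited by the authors. The submitters' processing notes name Cell Ranger 3.0.2, Seurat 3 and mm10. The libraries hold 2368 to 17951 barcodes. Their headers list 31053 genes.

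Cells with at least 500 genes and at most 10% mitochondrial UMIs were kept. A cell joined the class whose markers gave at least 3 UMIs over at least 2 markers and at least 2/3 of its marker UMIs, and other cells, among them those with markers of several classes, had no class. No doublet caller was run. The gate was set after looking at counts: a first gate let cardiomyocytes into the smooth muscle class, so Pln and Mustn1 were dropped and a cardiomyocyte list was added. The arachnoid list was dropped from the gate because it competed with brain fibroblast markers. Members and lists were chosen with earlier results of these data known.

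Counts were summed per class and library where at least 50 cells were present, giving 29 sums, and scaled to CPM. Log2 ratios are of CPM + 1. Genes averaging 50 CPM or more entered a comparison, and a 2-fold ratio counted as higher or lower. The 59 comparisons were 24 by injury, 12 by organ and 23 by class. Since each group is 1 library, no test and no SD could be given, and exact Poisson and binomial 95% intervals cover counting error only. By rule, the 10 highest and 10 lowest members of each comparison could be named, beside a fixed list of isoforms and catalytic subunits; Cox6b2, Sdhaf4 and the assembly factors were named after their values were seen. Free RNA was estimated from Dcn, Gsn and Mfap5 in endothelial-like cells, which is biased low because the gate picks endothelial-like cells with few fibroblast UMIs. The ratio script was checked on simulated data. Alternatives covered cell filters, gate, depth, scaling (edgeR 4.0.16 TMM factors among them), free RNA, thresholds and the 3 settings added after the data were seen. Tools were Python 3.11.15, numpy 2.4.6, pandas 2.3.3, scipy 1.17.1 and R 4.3.3. Promoter windows and gene positions came from RefSeq tables and GENCODE on GRCm38, and 16 members have no window there.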

Additional observations from a re-analysis of the deposited data

How the results depend on the processing

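With 20 other settings, the members' medians of the 59 comparisons gave 1149 values, of which 1126 moved by less than 0.25 on the log2 scale and 23 by more, and 12 medians changed sign in some setting. Most of these came with TMM scaling, which shifted the median of all genes by up to 1.02 on the log2 scale, while the difference between members and all genes changed by at most 0.135. The 1.5-fold setting changes only the call threshold and could move no median. Counting arachnoid markers against the gate could move only comparisons with fibroblast-gated cells. Part of the values that moved by less than 0.25 was thus fixed in advance. Under TMM, fibroblast-gated cells of the brain infarct had 0.96 against sham (0.39 as reported) and 0.39 against the peri-infarct (0.04), and macrophage-like cells 0.80 (0.40). Heart over brain under TMM was -0.17 for sham smooth-muscle-like (-0.43), -0.072 for sham fibroblast-gated (-0.44), 0.0079 for sham endothelial-like (-0.24), 0.33 for infarct (-0.05) and 0.19 for peri-infarct pericyte-like cells (-0.06). Pericyte-like cells of the heart sham under TMM had -0.70 against smooth-muscle-like (-0.34) and -0.075 against fibroblast-gated cells (0.23). Against macrophage-like cells the TMM value was 0.29 in the heart infarct (0.56), 0.55 in the heart peri-infarct (0.81), -0.76 in the brain infarct (0.12) and 0.12 in the brain peri-infarct (0.58). It was -3.03 against cardiomyocyte-like cells (-2.25), -0.88 against smooth-muscle-like cells of the brain sham (-0.59), -1.06 and -0.55 against fibroblast-gated cells of brain infarct and peri-infarct (-0.34 and -0.21) and -0.18 against endothelial-like cells of the brain infarct (0.16). With the gate set on thinned cells, the sham fibroblast-gated value of heart over brain was -0.17 and that of brain sham pericyte-like over fibroblast-gated cells 0.21 (-0.05). In the heart peri-infarct, pericyte-like over smooth-muscle-like cells gave -0.52 with up to 20% mitochondrial UMIs (-0.27), and pericyte-like over macrophage-like cells 0.55 with up to 5%. At 1.5-fold, 58 and not 32 members were lower in the heart in fibroblast-gated cells of the infarct and 50 and not 28 in the peri-infarct, by construction of the threshold. The cause of the other shifts was not tested. No paired analysis was possible because each group is 1 library. Shallow sums, such as those of 57 macrophage-like or 84 cardiomyocyte-like cells, limit low members most.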
